A study of Mus musculus with 6 samples.

Results

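The genes described here encode dehydrogenases and reductases that act on alcohols, aldehydes, steroids and retinoids in the mouse liver. They were chosen by name, as every row of the deposited table whose symbol begins with Adh, Aldh, Akr, Hsd, Dhrs or Rdh followed by a digit. Hsd17b4, Hsd17b7 and Hsd17b10, which act in peroxisomal beta-oxidation, cholesterol synthesis and mitochondria, were left out. This gave 84 genes of 27179 in the table, in 6 families: 7 alcohol dehydrogenases (Adh), 21 aldehyde dehydrogenases (Aldh), 17 aldo-keto reductases (Akr), 15 hydroxysteroid dehydrogenases (Hsd), 11 short-chain dehydrogenase/reductases (Dhrs) and 13 retinol dehydrogenases (Rdh).

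These enzymes move hydride between a substrate and NAD or NADP. In the liver, alcohol dehydrogenases turn ethanol and retinol into aldehydes, and aldehyde dehydrogenases turn aldehydes into acids, among them retinal into retinoic acid. Aldo-keto reductases and many short-chain enzymes run in the opposite direction with NADPH, and hydroxysteroid dehydrogenases switch steroid hormones and bile acid intermediates between active and inactive forms.

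Liver poly-A RNA came from 6 C57BL/6 mice that all carried the floxed Lsd1 (Kdm1a) gene and all received AAV8 by tail vein at 6 to 7 weeks of age, followed by a high-fat diet from a week later. In the 3 LSD1-LKO mice the virus carried Cre recombinase under the hepatocyte-specific TBG promoter (AAV8-TBG-Cre), and in the 3 Control mice it carried GFP (AAV8-TBG-GFP). The series text states 12 weeks of diet and the methods of the study a shorter time, so the duration is uncertain, and the labels give no sex. Cre under TBG deletes the gene in hepatocytes only, so other liver cells kept it, and in whole liver a change in the number of cells cannot be told apart from a change in RNA per cell.

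The values come from the authors' deposited DESeq2 table, which holds a mean over both groups, a log2 fold change with its SE and p-values for each gene, and nothing per liver. The spread between livers therefore enters only through the SE, and the depth of each library is unknown. A level is given as CPM, the share of a gene's base mean in the total of 2.07e+07 on the scale of counts per 1000000, or per kilobase of transcript where genes are compared with each other. A change is a log2 fold change of LSD1-LKO over Control ± SE (n = 3 and 3). The folds appear to have been shrunk toward 0 by DESeq2, most of all for genes of low level. This is inferred from small folds and SE at the lowest levels (Rdh12, 0.0148 CPM, −0.03 ± 0.07), and no header or method states it. A gene was called higher or lower at a DESeq2 adjusted p under 0.05. Levels of the separate groups are those implied by the mean and the deposited fold, and are approximate.

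Kdm1a, the deleted gene, had a change of −1.50 ± 0.16 (adjusted p = 1.32e-19). Which group is the numerator is not stated in the table, and it was read so that Kdm1a is lower, so the sign of every value below rests on that reading. Of 10 hepatocyte markers 1 was called, Tat (−0.40 ± 0.14), where 18.2% of all tested genes were called. Of these markers 4 were at an unadjusted p under 0.05, and none was at 0. Their folds were above 0 for 6 and below for 4, with a median of 0.04. Their summed implied level was 127712 CPM in Control and 116500 CPM in LSD1-LKO, mostly Alb (−0.21 ± 0.09), which did not pass. The level of Xist was 0.07 CPM, while 4 Y-linked genes were at 17.8 to 87.7 CPM, which is the pattern of male livers. The study states that most of its experiments used males. Of the 4 Y-linked genes Ddx3y was called lower (−0.31 ± 0.10, adjusted p = 0.0129) and the other 3 did not pass.

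Of the 84 members, 67 had an adjusted p. Among them 21 were higher and 11 lower in LSD1-LKO, and 35 did not pass. Of all 14257 tested genes 12.3% were higher and 5.93% lower, or 18.2% in either direction, against 31.3% and 16.4% of the tested members. Members were more abundant than most genes, and calls depend on level. At 100 CPM or more were 34 of the 67 tested members but only 1331 of all tested genes. At that level 26.5% of members were higher and 14.7% lower, against 11.2% and 17.7% of all tested genes. The median log2 fold change was 0.03 for the members and −0.01 for all tested genes, and 34 members had a fold above 0 and 33 below. The median absolute log2 fold change was 0.28 for the members and 0.17 for all tested genes. The balance of directions depended on the scale. With folds taken relative to their trend on transcript length, 18 members were higher and 17 lower, so the share of higher calls went from 65.6% to 51.4%, while over all tested genes it went from 67.5% to 44.2%. That trend lay between 0.04 and 0.10 over the members, so its removal by construction lowered every member fold. Later values relative to this trend share that offset. With folds centred on the median of genes at 10 CPM or more, 67.65% of member calls and 77.66% of all calls were higher.

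**Figure D1:**
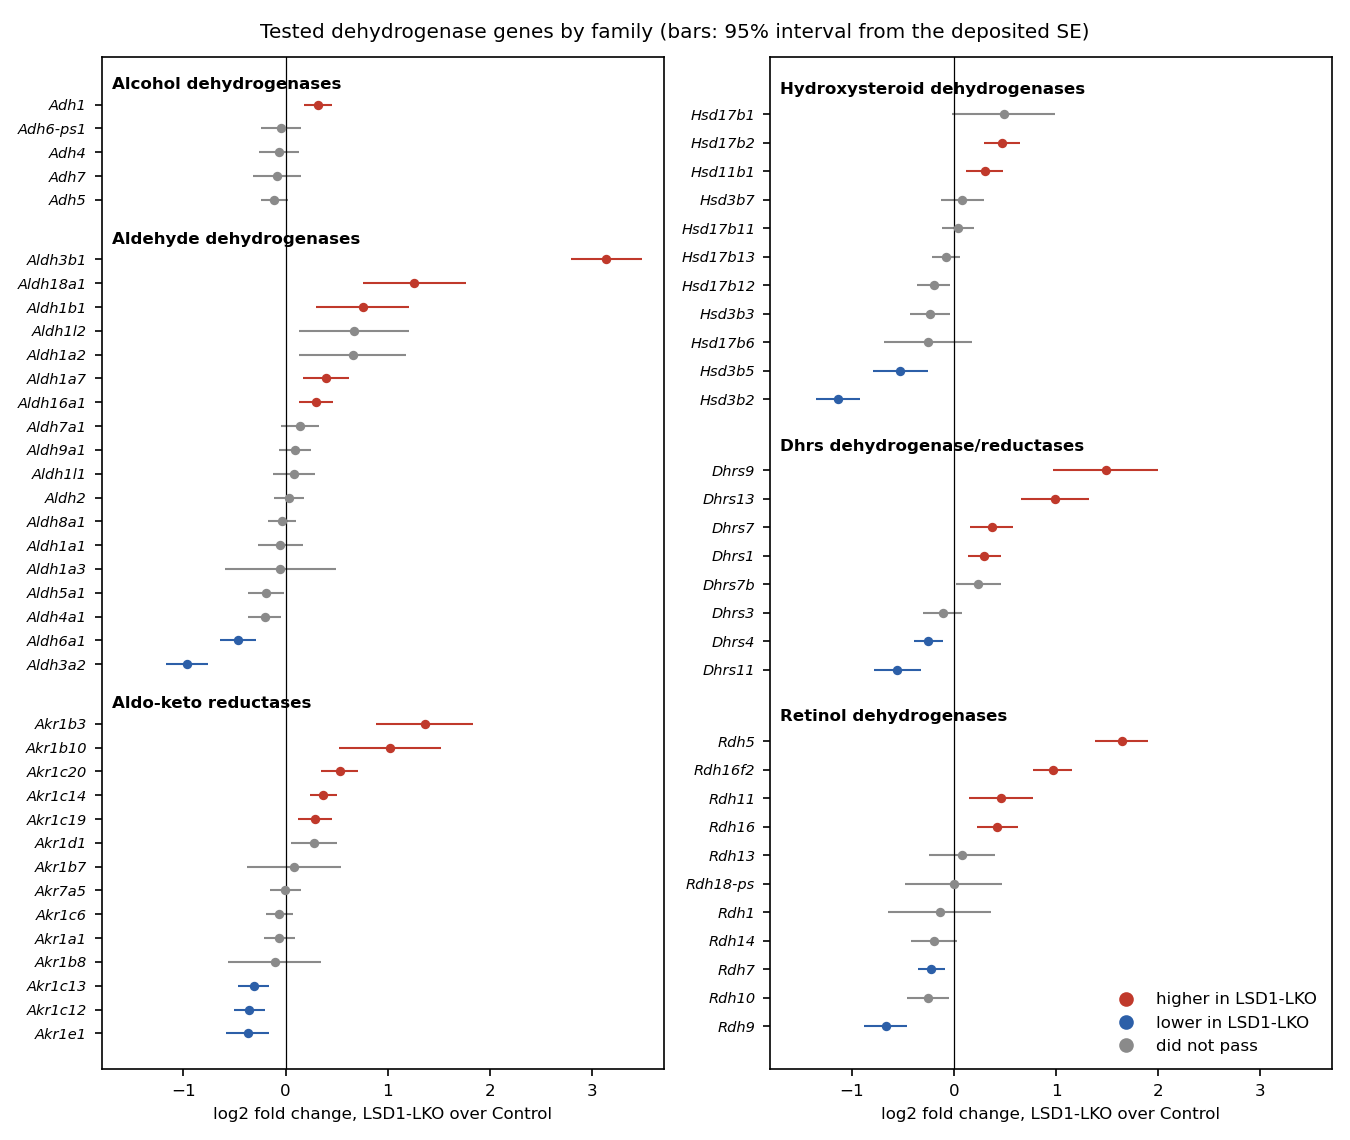
Log2 fold change of LSD1-LKO over Control (x axis) for the 67 tested members, grouped by family and ordered by value (y axis). Points are the deposited DESeq2 values and bars their 95% intervals. The point farthest to the right is Aldh3b1 at 3.14 and the one farthest to the left is Hsd3b2 at −1.13.

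The remaining 17 members could not be tested. Listed at 0 were Akr1cl, Aldh3b2, Dhrs2, Dhrs7c, Hsd17b3, which makes testosterone in the testis, Hsd3b4 and Hsd3b6. A further 10 had a level of at most 0.137 CPM and no adjusted p, namely Adh6a, Adh6b, Akr1c18, Akr1c21, Aldh3a1, Aldh3b3, Dhrs13os, Hsd3b1, Rdh12 and Rdh19.

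Calls were made at every level. Of 34 members at or above 100 CPM, 9 were higher and 5 lower, where 11.2% and 17.7% of all tested genes of that level were called. The largest change among these 14 called members was that of Rdh16f2, at 0.97, and 2 of the 14 changed by at least 1.5-fold. Of 19 members at 10 to 100 CPM, 6 were higher and 6 lower, against 12.1% and 8.18% of all tested genes of that level. Of 14 tested members under 10 CPM, 6 were higher and 0 lower, against 12.7% and 1.55% of all tested genes under 10 CPM. These 6 ran from Dhrs13 at 0.99 to Aldh3b1 at 3.14. The median SE of tested members was 0.25 under 10 CPM and 0.09 at 100 CPM or more, so a weakly expressed member could pass only with a large fold. In all, 6 members were higher and 1 was lower by at least 2-fold. Of those 6 rises 5 were of members under 10 CPM, and the exception was Rdh5 at 28.4 CPM.

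**Figure D2:**
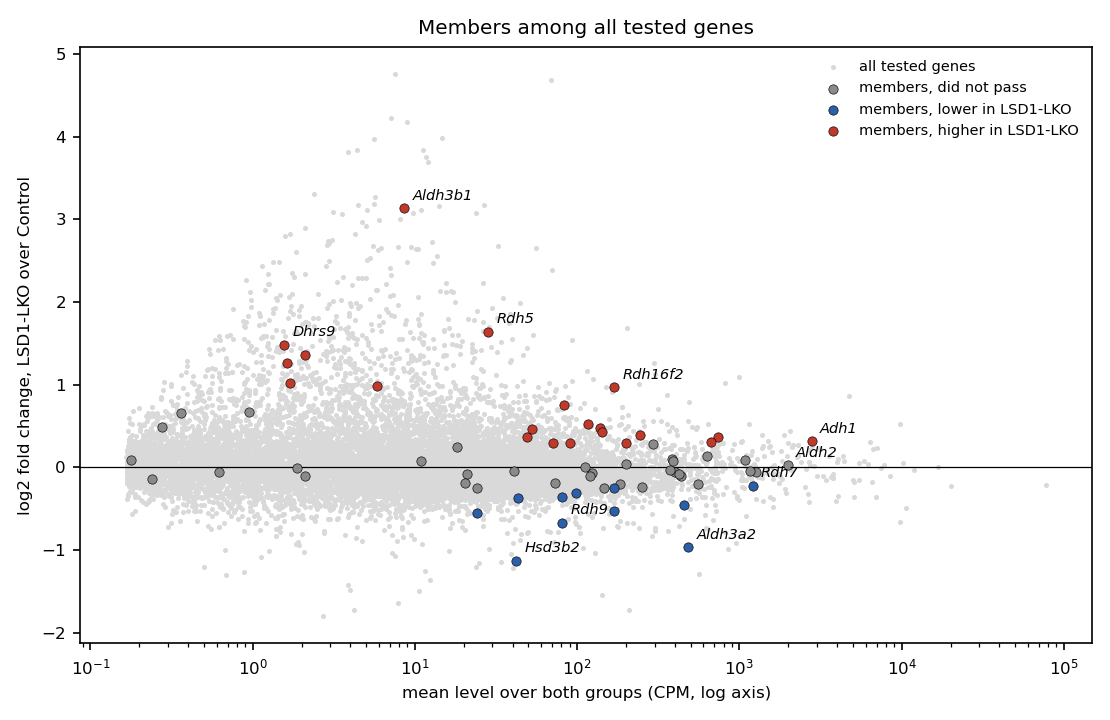
Mean level over both groups (x axis, CPM, log scale) against log2 fold change of LSD1-LKO over Control (y axis) for all 14257 tested genes (light grey) and the 67 tested members (coloured by call). Members at 100 CPM or more lie between −0.96 and 0.97, and the members above 1 lie at lower levels.

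Sequence before a start site is shown for a selection of members. These are Aldh3b1 with the largest change, 3 neighbouring Rdh genes that differed in direction, and the near-identical pair Akr1c12 and Akr1c13, which fell together. Each run covers the bases from 250 to 41 before a RefSeq start (GRCm38.p6), is written on the strand of the gene, and overlaps no annotated exon of GENCODE vM21. The start in the RefSeq promoter table is not always the outer end of the gene model. That of Aldh3b1 lies 1120 bases inside the model, so all 210 bases of its window are within the gene. The start of Rdh16 lies 63 bases inside, with 23 bases of its window within the gene, and that of Akr1c13 lies 19 bases inside. In the first 4, capitals mark matches on either strand to any of 6 short motifs: the nuclear receptor half-site AGGTCA, the antioxidant response element core TGACNNNGC, the xenobiotic response element core GCGTG, the TATA box TATAAA, the CCAAT box CCAAT and the HNF1 half-site GTTAAT.
Aldh3b1 (chr19:3929819-3930028, minus strand): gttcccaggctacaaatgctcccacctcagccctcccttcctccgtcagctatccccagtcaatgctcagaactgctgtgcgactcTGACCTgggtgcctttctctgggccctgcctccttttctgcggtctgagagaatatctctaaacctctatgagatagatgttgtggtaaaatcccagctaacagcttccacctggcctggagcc
Rdh9 (chr10:127776155-127776364, plus strand): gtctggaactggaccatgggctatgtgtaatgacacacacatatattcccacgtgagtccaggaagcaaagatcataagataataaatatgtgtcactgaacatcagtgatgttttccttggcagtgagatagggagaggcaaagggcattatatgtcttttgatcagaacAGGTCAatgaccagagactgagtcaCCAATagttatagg
Rdh16 (chr10:127800903-127801112, plus strand): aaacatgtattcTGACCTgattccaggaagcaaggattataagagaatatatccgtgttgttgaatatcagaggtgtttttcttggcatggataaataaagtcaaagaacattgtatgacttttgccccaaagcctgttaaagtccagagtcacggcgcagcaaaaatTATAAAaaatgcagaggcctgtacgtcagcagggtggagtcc
Rdh16f2 (chr10:127866226-127866435, plus strand): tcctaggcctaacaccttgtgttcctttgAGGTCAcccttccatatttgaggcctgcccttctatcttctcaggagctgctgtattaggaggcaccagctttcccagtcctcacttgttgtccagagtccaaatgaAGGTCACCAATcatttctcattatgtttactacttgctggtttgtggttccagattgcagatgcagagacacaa

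All 4 windows held the half-site AGGTCA, at 164 bases before the start in Aldh3b1, 79 in Rdh9, 238 in Rdh16, and 221 and 114 in Rdh16f2, positions being those of the first base of the match, counted from the start in the promoter table. Rdh16 alone of the 4 held TATAAA, 82 bases before the start, and CCAAT lay 54 bases before the start of Rdh9 and 108 before that of Rdh16f2, where it adjoined a half-site. The windows of Rdh5 and Hsd3b2, also searched and not shown, held no match to any of the 6 motifs. Over the same window, AGGTCA was present in 12% of 32851 RefSeq promoter entries, TATAAA in 9.56% and CCAAT in 29.9%. Of 84 members 67 matched an entry, and 13 of these held AGGTCA, among them 5 of 18 higher and 2 of 11 lower members. The antioxidant core occurred in 6 of the 67, 1 of the higher and 0 of the lower members, against 8.2% of all entries. The xenobiotic core occurred in 5 of 18 higher and 3 of 11 lower members, against 23.8% of all, and the HNF1 half-site in 1 of 18 and 0 of 11, against 5.59%. Such matches describe the letters only and are not evidence of binding.

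For the Akr1c pair, capitals mark the bases that differ from the other gene or have no partner there in a global alignment.
Akr1c12 (chr13:4279440-4279649, minus strand): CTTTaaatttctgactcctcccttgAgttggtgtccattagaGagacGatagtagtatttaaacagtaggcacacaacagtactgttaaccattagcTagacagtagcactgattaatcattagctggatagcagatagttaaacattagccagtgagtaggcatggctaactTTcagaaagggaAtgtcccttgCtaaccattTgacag
Akr1c13 (chr13:4190937-4191146, plus strand): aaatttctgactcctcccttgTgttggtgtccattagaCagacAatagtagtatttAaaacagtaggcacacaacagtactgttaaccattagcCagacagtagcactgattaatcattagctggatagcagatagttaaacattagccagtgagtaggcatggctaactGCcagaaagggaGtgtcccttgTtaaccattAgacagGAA
Over 206 aligned positions 197 were identical, 95.6%. None of the 6 motifs had a match in either window.

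Alcohol dehydrogenases open both the ethanol and the retinol pathway, and 1 of 5 tested members was higher and 0 lower. Of all tested genes 12.3% were higher and 5.93% lower. Adh1, the class I enzyme that carries most hepatic ethanol oxidation and also oxidizes retinol, had the highest level per transcript length of all members (2782 CPM). Its implied level was 2475 CPM in Control and 3090 CPM in LSD1-LKO, a change of 0.32 ± 0.07 or 1.25-fold (adjusted p = 6.69e-05). Adh5, the glutathione-dependent formaldehyde dehydrogenase, was at −0.11 ± 0.07 (437 CPM) and did not pass. Adh4, a class II enzyme, was at −0.07 ± 0.10 (123 CPM), Adh7, a class IV retinol-active enzyme known from the stomach, at −0.09 ± 0.12 and the pseudogene Adh6-ps1 at −0.05 ± 0.10, and none of these passed. The 7 Adh genes lie side by side on chromosome 3 (GRCm38, 138198064 to 138455499), and only 1 of the 5 tested there was called. With folds relative to the length trend, Adh5 was also called lower (−0.18, adjusted p = 0.0405).

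Of 6 other tested genes of ethanol and acetate metabolism, 1 was higher, 1 lower and 4 did not pass, where 18.2% of all tested genes were called. Cyp2e1, the microsomal ethanol-oxidizing cytochrome, was lower (−0.66 ± 0.07, adjusted p = 7.37e-22), and Acss2, which makes acetyl-CoA from acetate, was higher (0.44 ± 0.12, adjusted p = 0.00182). The median of the 6 was −0.12.

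Aldehyde dehydrogenases included the largest change of all members. Of 18 tested, 5 were higher and 2 lower, beside 12.3% and 5.93% of all tested genes, and the family median was 0.09. The most abundant aldehyde dehydrogenases per length hardly moved. Aldh2, the mitochondrial enzyme that clears acetaldehyde, was at 0.03 ± 0.08 (1980 CPM, 95% interval −0.12 to 0.18). Aldh1a1, the cytosolic retinal dehydrogenase, was at −0.05 ± 0.11 (1155 CPM), and Aldh7a1, which acts in lysine breakdown, at 0.14 ± 0.09 (633 CPM). None of these passed.

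Among enzymes of lipid aldehydes, 2 had an adjusted p and they went in opposite directions. Aldh3b1, a membrane-associated enzyme that oxidizes aldehydes from lipid peroxidation, had a change of 3.14 ± 0.18, 8.81-fold higher in LSD1-LKO (adjusted p = 2.53e-66). Its implied level was 1.75 CPM in Control and 15.4 CPM in LSD1-LKO. By size of fold it ranked 18 of the 14257 tested genes. Its neighbours on chromosome 19, Aldh3b3 at 0.0760 CPM and Aldh3b2 at 0, could not be tested, although their coding sequences are 86.8% and 85.9% identical to that of Aldh3b1. Aldh3a2, the fatty aldehyde dehydrogenase of the endoplasmic reticulum whose human counterpart is mutated in Sjögren-Larsson syndrome, was lower at −0.96 ± 0.10 (adjusted p = 2.18e-18). Its implied level was 638 CPM in Control and 327 CPM in LSD1-LKO, 1.95-fold lower. The summed implied level of the 5 genes of this role was 640 CPM in Control and 343 CPM in LSD1-LKO, since Aldh3a2 supplied most of it.

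Of 7 mitochondrial aldehyde dehydrogenases, 2 were higher and 1 lower, beside 12.3% and 5.93% of all tested genes. Aldh18a1, which starts proline and ornithine synthesis from glutamate, was 2.40-fold higher at 1.26 ± 0.26 (adjusted p = 1.86e-05), but its level was only 1.63 CPM. Aldh1b1, a mitochondrial relative of Aldh2 that also accepts acetaldehyde, was higher at 0.76 ± 0.23 (82.9 CPM, adjusted p = 0.00922). Aldh6a1, the methylmalonate semialdehyde dehydrogenase of valine breakdown, was lower at −0.46 ± 0.09 (455 CPM, adjusted p = 5.1e-06). Aldh4a1, which completes proline breakdown, stood at −0.20 ± 0.08 (adjusted p = 0.0718). Aldh5a1, the succinic semialdehyde dehydrogenase, was at −0.19 ± 0.09 (adjusted p = 0.136). Both were called lower with folds relative to the length trend (−0.28 and −0.29), a step that by construction lowers every member fold. For Aldh4a1, 45% of its 50-base windows also lie in the overlapping gene model Gm21969. Aldh1l2, the mitochondrial 10-formyltetrahydrofolate dehydrogenase, was at 0.67 ± 0.27 (0.955 CPM, adjusted p = 0.0716), and its abundant cytosolic counterpart Aldh1l1 was at 0.08 ± 0.11 (1080 CPM).

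Of the 5 genes listed for retinal oxidation 1 was higher, beside 12.3% of all tested genes, and 4 did not pass. Whether the higher one, Aldh1a7, acts on retinal was not examined. Aldh1a7, a rodent relative of Aldh1a1, was at 0.39 ± 0.11 (245 CPM, adjusted p = 0.00535), next to Aldh1a1 on chromosome 19 and 92.3% identical to it in coding sequence. Their 95% intervals, 0.17 to 0.62 and −0.27 to 0.17, overlapped narrowly, and the difference was not tested. Aldh1a2, the main retinoic acid producing enzyme of embryos, was at 0.66 ± 0.27 (0.361 CPM, adjusted p = 0.0702), and was called higher when folds were recentred (0.70, adjusted p = 0.0497). Aldh1a3 (−0.05 ± 0.28) and Aldh8a1 (−0.03 ± 0.07) did not pass. Aldh16a1, an atypical member, was higher at 0.30 ± 0.09 (adjusted p = 0.00431), a call that was lost after removal of the trend on length and GC content (0.17, with an adjusted p = 0.147). Aldh9a1, which makes a precursor of carnitine, was at 0.10 ± 0.08 and did not pass.

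Retinol dehydrogenases and their partners included the second largest rise. Of the 17 tested members that interconvert retinol and retinal, across the Adh, Rdh and Dhrs families, 6 were higher and 3 lower. The shares over all tested genes were 12.3% and 5.93%. The lower ones were Rdh7, Rdh9 and Dhrs4, described below. Rdh5, the 11-cis-retinol dehydrogenase known from the eye, was 3.12-fold higher at 1.64 ± 0.13 (adjusted p = 7.05e-33), with implied levels of 13.8 CPM in Control and 43.0 CPM in LSD1-LKO. A share of 17.3% of its windows also lies in Bloc1s1, a neighbour on the same strand. Dhrs9, a retinol dehydrogenase of the short-chain family, was 2.80-fold higher at 1.48 ± 0.26 (1.56 CPM, adjusted p = 2.97e-07). Rdh11, an NADPH-dependent retinal reductase, was higher at 0.46 ± 0.16 (52.5 CPM, adjusted p = 0.0264), the weakest call of the set, lost at an adjusted p under 0.01 and relative to the length trend (0.39, adjusted p = 0.0636). Rdh10, which oxidizes all-trans-retinol on the way to retinoic acid, was at −0.25 ± 0.10 (adjusted p = 0.0712), and was called lower relative to the length trend (−0.33). Rdh13 (0.08 ± 0.17), Rdh14 (−0.19 ± 0.12) and the retinal reductase gene Dhrs3 (−0.11 ± 0.10) did not pass.

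Within a stretch of chromosome 10 (127759726 to 128007648), 8 members stand in a row, and called changes among them went both ways. Rdh9 was lower, Rdh16 and Rdh16f2 were higher and Rdh7 was lower. Rdh7, the third most abundant member per length (1208 CPM), was at −0.22 ± 0.07 (adjusted p = 0.00808). Rdh16f2 was at 0.97 ± 0.10 (adjusted p = 4.63e-21), with implied levels of 115 CPM in Control and 224 CPM in LSD1-LKO. Rdh16 was at 0.42 ± 0.10 (implied 122 CPM to 164 CPM, adjusted p = 0.000471). Rdh9 was at −0.67 ± 0.11 (implied 99.7 CPM to 62.7 CPM, adjusted p = 1.52e-08).

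The coding sequences of Rdh9 and Rdh16 are 96.3% identical, and yet their intervals, −0.88 to −0.46 and 0.22 to 0.63, lie on either side of 0. Of the 50-base windows of the Rdh9 transcript 92.3% occur in other genes, mostly in the overlapping model Rdh16f1, and 12.4% of those of Rdh16 occur in Rdh9. How reads with several matches were counted is not given in the sources used here, so the split of reads among these genes is uncertain. Hsd17b6, at the end of the row, acts on androgens and retinols and was at −0.25 ± 0.22 without passing. Rdh1 (0.238 CPM, −0.14 ± 0.26) and Rdh18-ps (1.88 CPM, −0.00 ± 0.24) did not pass.

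**Figure D3:**
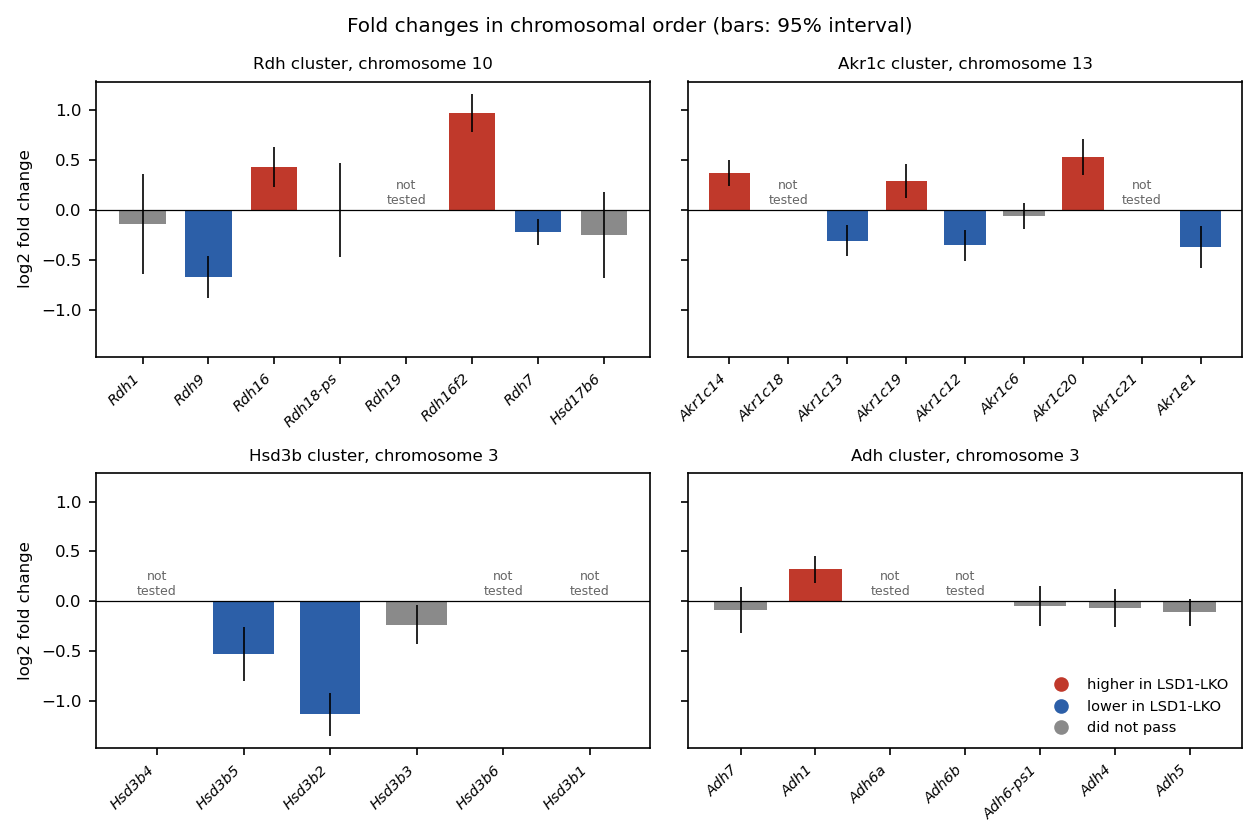
Log2 fold change of LSD1-LKO over Control (y axis) for members in 4 clusters, in chromosomal order (x axis). Bars are coloured by call with 95% intervals from the DESeq2 SE. In the Rdh and Akr1c panels bars point both ways, in the Hsd3b panel the 3 tested bars point down, and in the Adh panel 1 bar is called.

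Of 20 tested genes of retinoid storage, transport and response outside the members, 4 were higher, 1 was lower and 15 did not pass, with a median of −0.03, where 12.3% of all tested genes were higher and 5.93% lower. Bco1, which cleaves beta-carotene to retinal, was among the higher ones, at 2.13 ± 0.14 (adjusted p = 6.86e-50). Sdr16c5, another retinol dehydrogenase, was at 1.01 ± 0.27 and the receptor gene Rxrg at 0.63 ± 0.17. Retsat, which saturates retinol, was lower at −0.27 ± 0.09 (adjusted p = 0.0256).

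Among the Dhrs genes other than Dhrs9 and Dhrs3, 3 were higher and 2 lower, beside 12.3% and 5.93% of all tested genes. Dhrs4 was also counted above among the genes that interconvert retinol and retinal. Dhrs13, of no settled role, was at 0.99 ± 0.17 (5.84 CPM, adjusted p = 1.52e-07), and 16.9% of its exon sequence lies opposite its antisense gene Dhrs13os. Dhrs7, an enzyme of the endoplasmic reticulum, was at 0.37 ± 0.11 (adjusted p = 0.00576), and Dhrs1, the most abundant per length in the family, at 0.30 ± 0.08 (201 CPM, adjusted p = 0.00252). Dhrs4, a peroxisomal NADPH-dependent reductase of retinal and other carbonyls, was lower at −0.25 ± 0.07 (168 CPM, adjusted p = 0.00663). Dhrs11, whose human counterpart reduces steroids and other carbonyls, was lower at −0.55 ± 0.12 (24.1 CPM, adjusted p = 4.34e-05). Dhrs7b was at 0.24 ± 0.11 and did not pass.

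Of 11 tested hydroxysteroid dehydrogenases 2 were higher and 2 lower, beside 12.3% and 5.93% of all tested genes. None of the 4 tested 3-beta-hydroxysteroid dehydrogenases was higher and 2 were lower. Hsd3b2 had the steepest fall of all members, −1.13 ± 0.11 (adjusted p = 1.11e-22), from an implied 57.9 CPM in Control to 26.5 CPM in LSD1-LKO, 2.19-fold lower. Hsd3b5, a reductase of 3-ketosteroids that is typical of the male mouse liver, was at −0.53 ± 0.14 (implied 198 CPM to 138 CPM, adjusted p = 0.00141). Hsd3b3, the most abundant per length of the 3, was at −0.23 ± 0.10 (251 CPM, adjusted p = 0.0856) and was called relative to the length trend (−0.30). These 3 lie within 1 cluster on chromosome 3 (98499071 to 98859794), and Hsd3b2 and Hsd3b3 are 95.1% identical in coding sequence. For Hsd3b2, 25.5% of the 50-base windows occur in any other gene and 11.1% in Hsd3b3. For Hsd3b3, 28.7% occur in any other gene and 27.2% in Hsd3b2. Part of their reads may have been shared out between them or with other genes.

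Hsd3b7, which acts on bile acid intermediates and lies on chromosome 7, was at 0.08 ± 0.11 (388 CPM) and did not pass. Nearly all of its windows, 93.9%, also lie in the readthrough model Gm49388. Hsd11b1, which regenerates active corticosterone and is abundant in hepatocytes (672 CPM), was higher at 0.30 ± 0.09 (adjusted p = 0.00857), and its call was narrowly lost relative to the length trend (0.23, adjusted p = 0.0503). Of 6 tested 17-beta enzymes 1 was higher, beside 12.3% of all tested genes. Hsd17b2, which inactivates estradiol and testosterone, was at 0.47 ± 0.09 (implied 115 CPM to 160 CPM, adjusted p = 4.31e-06). Hsd17b13, a protein of lipid droplets, was at −0.08 ± 0.07 (427 CPM). Hsd17b12, which takes part in the elongation of fatty acids, was at −0.20 ± 0.08 (adjusted p = 0.078) and was called lower relative to the length trend (−0.28). Hsd17b11 (0.04 ± 0.08) and Hsd17b1 (0.276 CPM, 0.49 ± 0.26) did not pass.

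Of 14 other tested genes of steroid synthesis and inactivation, 2 were higher and 0 lower, with 3 at an unadjusted p under 0.05. Over all tested genes 12.3% were higher and 5.93% lower. Ugt2b34, a glucuronosyltransferase, was at 0.30 ± 0.07 (adjusted p = 0.000238) and Srd5a3, named for steroid reduction and acting in dolichol synthesis, at 0.47 ± 0.13 (adjusted p = 0.00263). In bile acid synthesis, Akr1d1, the 5-beta-reductase, was at 0.28 ± 0.11 (293 CPM, adjusted p = 0.0739) and was called higher when folds were recentred (0.32, adjusted p = 0.0313). Of 11 other tested genes of that pathway, 1 was higher, 1 lower and 9 did not pass, where 18.2% of all tested genes were called. Cyp39a1 was higher (0.82 ± 0.13, adjusted p = 2.02e-08) and Cyp27a1, the sterol 27-hydroxylase, lower (−0.71 ± 0.09, adjusted p = 6.13e-13).

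Aldo-keto reductases had 5 higher and 3 lower of 14 tested, beside 12.3% and 5.93% of all tested genes. Their most abundant members per length were Akr1c6, a 17-beta-hydroxysteroid dehydrogenase of the mouse liver (1259 CPM, −0.06 ± 0.07), Akr1a1, the aldehyde reductase that mice use to make ascorbate (402 CPM, −0.06 ± 0.08), and Akr1c14, a 3-alpha-hydroxysteroid dehydrogenase. The first and second did not pass. Akr1c14 was higher at 0.37 ± 0.07 (implied 642 CPM to 830 CPM, adjusted p = 1.03e-06).

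The Akr1c cluster on chromosome 13 (4048991 to 4609164) holds 9 members, of which 7 were tested. Of these 3 were higher and 3 lower, beside 12.3% and 5.93% of all tested genes. Akr1c20 was at 0.53 ± 0.09 (116 CPM, adjusted p = 2.2e-07). It is 92.3% identical in coding sequence to its neighbour Akr1c6, which stayed within −0.19 to 0.07 (95% interval). Akr1c19 was higher at 0.29 ± 0.09 (90.2 CPM, adjusted p = 0.00688) and lost its call relative to the length trend (0.19, adjusted p = 0.101). On either side of it in the row, Akr1c13 was lower at −0.31 ± 0.08 (98.1 CPM, adjusted p = 0.000951) and Akr1c12 at −0.36 ± 0.08 (80.8 CPM, adjusted p = 6.49e-05). These 2 are 96.2% identical in coding sequence, share 28.6% of their windows, and are the pair whose upstream sequences were shown as nearly alike. Akr1e1, which reduces 1,5-anhydrofructose, ends the row and was lower at −0.37 ± 0.11 (43.0 CPM, adjusted p = 0.0047).

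In the Akr1b cluster on chromosome 6, 2 of 4 were higher, beside 12.3% of all tested genes, and all 4 were at low level. Akr1b3, the aldose reductase that makes sorbitol from glucose, was 2.57-fold higher at 1.36 ± 0.24 (implied 1.18 CPM to 3.02 CPM, adjusted p = 3.93e-07). Of its windows 56.2% also occur in the gene model Gm6644. Akr1b10 was 2.03-fold higher at 1.02 ± 0.25 (1.69 CPM, adjusted p = 0.000711), while Akr1b8 (2.11 CPM, −0.10 ± 0.23) and Akr1b7 (0.177 CPM, 0.08 ± 0.23) did not pass. Akr7a5, an aflatoxin aldehyde reductase, was at −0.00 ± 0.08 (112 CPM), and was called lower after removal of the trend on length and GC content (−0.21, with an adjusted p = 0.035).

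**Figure D4:**
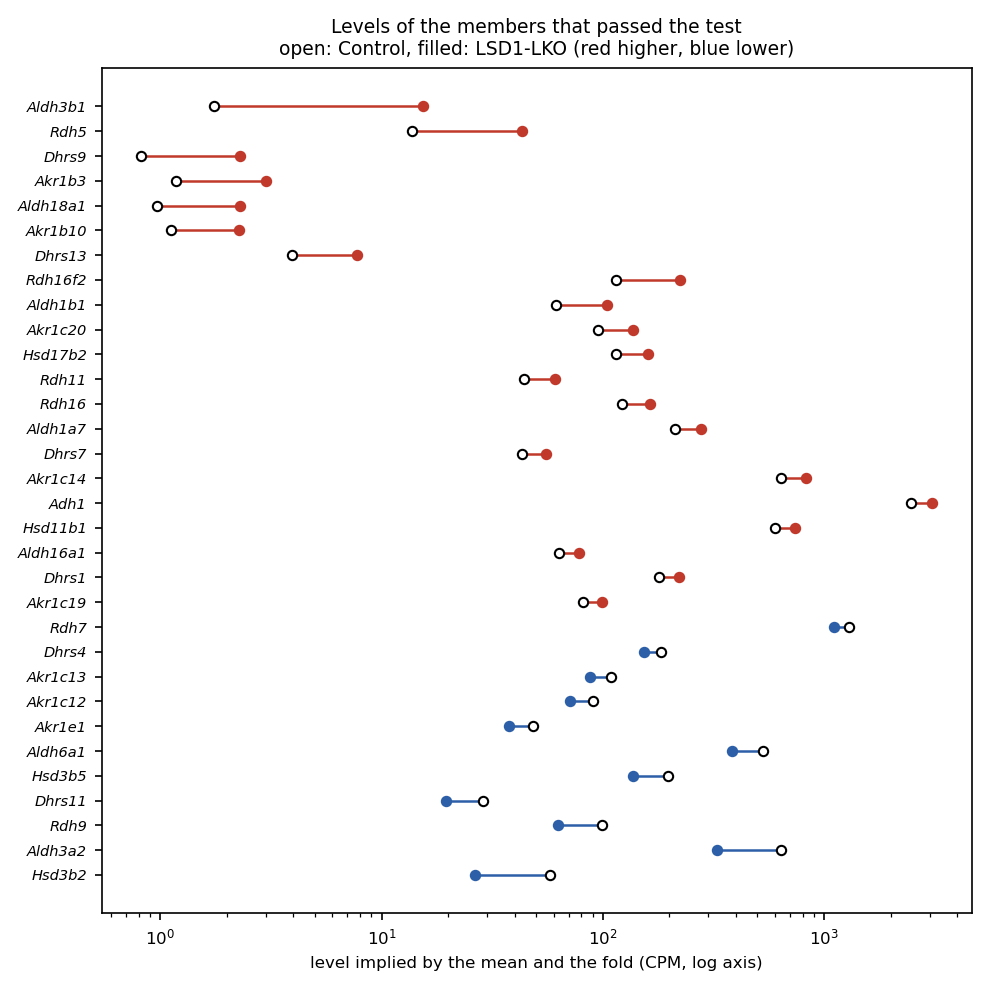
Levels implied by the mean and the deposited fold (x axis, CPM, log scale) of the 32 called members, ordered by fold (y axis), with open points for Control and filled points for LSD1-LKO. Adh1 lies farthest to the right, at 2475 and 3090 CPM, and the widest span is that of Aldh3b1, from 1.75 to 15.4 CPM.

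Implied levels were also summed over each family. The alcohol dehydrogenases summed to 3118 CPM in Control and 3691 CPM in LSD1-LKO, mostly Adh1, the aldehyde dehydrogenases to 7714 and 7451 CPM, the aldo-keto reductases to 3144 and 3329 CPM, the hydroxysteroid dehydrogenases to 2613 and 2619 CPM, the Dhrs genes to 581 and 596 CPM and the retinol dehydrogenases to 1756 and 1724 CPM. The 84 genes together made up 1.92% of the summed base means.

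Genes that supply the cofactor, and targets of NRF2 and of the aryl hydrocarbon receptor outside the members, were counted as well. Beside them, 12.3% of all tested genes were higher and 5.93% lower. Whether either factor acts on the members was not tested. Of 10 tested genes of NADPH supply 4 were higher and 0 lower: Me2 (1.57 ± 0.20), Idh2 (0.40 ± 0.09), Tkt (0.34 ± 0.08) and Me1 (0.45 ± 0.12), with a median of 0.17. Of 15 tested targets of NRF2, the oxidative stress factor, 5 were higher and 0 lower, led by the sulfiredoxin gene Srxn1 (0.70 ± 0.10), the quinone reductase gene Nqo1 (0.80 ± 0.16), the glutathione transferase genes Gstp1 (0.56 ± 0.12) and Gstm3 (0.75 ± 0.17), with a median of 0.19. Of 7 tested targets of the aryl hydrocarbon receptor 4 were higher and 0 lower: Ugt1a6b (0.55 ± 0.09), Cyp1a2 (0.49 ± 0.08), Ugt1a6a (0.51 ± 0.09) and Nqo1, which is on both lists. Ugt1a6a and Ugt1a6b share their last exons, so their counts are not independent.

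Genes that differ between the sexes in mouse liver were counted beside Hsd3b5, the male-typical member, which was lower. For comparison, 12.3% of all tested genes were higher and 5.93% lower. Of 20 tested male-biased genes of the mouse liver 6 were higher, among them Cyp4a12a (1.13 ± 0.10), C6 (0.56 ± 0.11) and Gstp1, and 2 were lower, Cyp2d9 (−0.59 ± 0.10) and Mup21 (−1.03 ± 0.24). Of 13 tested female-biased genes 1 was higher, Abcd2 (0.75 ± 0.24), and 3 were lower: Fmo2 (−0.57 ± 0.17), Vldlr (−0.77 ± 0.27) and Cyp4a10 (−0.77 ± 0.27).

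Markers of other liver cells were counted beside these values. None of 12 stellate cell markers was called by DESeq2 (0 at an unadjusted p under 0.05, with Rgs5 of smallest p at −0.31 ± 0.22), and their summed implied level was 428 CPM in Control and 445 CPM in LSD1-LKO. None of 10 Kupffer cell and macrophage markers was called (0 unadjusted, Vsig4 of smallest p at 0.23 ± 0.15, sums of 203 and 210 CPM), nor any of 8 cholangiocyte markers (0 unadjusted, sums of 83.0 and 84.4 CPM). Of 10 sinusoidal endothelial markers 2 were higher and 0 lower, against 12.3% and 5.93% of all tested genes. The higher ones were Dpp4 (0.32 ± 0.07), which hepatocytes also make, and Stab1 (0.31 ± 0.11). Most endothelial markers had a fold below 0 (7, against 3 above), with a median of −0.19 and 4 at an unadjusted p under 0.05. Their sums were 379 and 399 CPM, with Dpp4 alone at a mean of 168 CPM. Of 9 lymphocyte markers 1 was higher, Cd4 (1.39 ± 0.20), while Cd3e, Cd3d, Cd8a, Ms4a1, Cd79a and Nkg7 were each under 1 CPM, with sums of 10.1 and 14.6 CPM. None of these markers was at 0.

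Liver zones, the bands of hepatocytes between portal and central veins, were described by their markers. The shares over all tested genes were 12.3% higher and 5.93% lower. Of 16 pericentral genes 4 were higher, led by Rhbg (2.23 ± 0.16) with Cyp1a2, Gulo (0.47 ± 0.09) and Lect2, and 3 lower, Cyp2e1, Oat (−0.75 ± 0.14) and Lhpp (−0.47 ± 0.12). Of 14 periportal genes 1 was called, Cdh1 (1.75 ± 0.14), higher. The part of cell makeup and zonation in the members' changes was not tested.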

How the data were processed

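Poly-A RNA from the livers of 3 Control and 3 LSD1-LKO mice was sequenced. The labels and methods state that the authors aligned reads to mm10 with STAR, used StringTie and ran DESeq2 on Galaxy. Tool versions, gene annotation, strandedness and the handling of reads with several matches were not stated in the labels or the methods. The only table, deposited by the authors, holds 1 comparison and no value per liver. The deposited base mean, a signal, is the average of counts that the authors had divided by DESeq2 size factors. Fold changes and SE were deposited on the log2 scale. The Wald statistic was deposited as a score, the fold over its SE, and the deposited p-value of a gene is its two-sided normal tail area. All these are columns of the authors' own comparison, used because the table holds no other measure of change. Fits with edgeR or limma, and fits leaving out a liver, were not possible. No column with values per sample was left unused (0). Recomputed p-values and adjusted p-values differed from the deposited ones by at most 4.39e-15 and 1.94e-15. Genes with a base mean of 3.45 or more could have an adjusted p, and an empty one stayed empty.

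Coordinates and missing symbols came from RefSeq (GRCm38.p6). Length, GC content, coding identity over aligned positions and shared 50-base windows came from GENCODE vM21 principal transcripts, known for all 84 members and 13898 tested genes. Levels per group were derived from the mean and the fold. Clusters are members less than 200 kb apart. Intervals are 95% normal intervals from the SE, and p-values measure the spread between these livers only. Python 3.11.15, pandas 2.3.3, scipy 1.17.1, biopython 1.88 and R 4.3.3 were used, and recomputed calls were tested on simulated data.

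The members and all lists were chosen with earlier results of these data known. Named were members with an adjusted p under 0.1, the 3 tested members of each family with the highest level per length, Kdm1a, and from each other list up to 4 called genes of smallest p (with none called, the gene of smallest p). Some genes that this rule names are not reported here. Other members were named to account for all 84, and Lect2, Mup21, Abcd2 and the other list genes that complete a count were named after their values were seen. The alternatives were as follows: no level filter, a minimum of 10 CPM, a stricter threshold of 0.01, unadjusted p-values, folds centred on the median of genes at 10 CPM or more (−0.04), folds minus a loess trend (span 0.5) on length alone or with GC content, and levels not divided by length.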

Additional observations from a re-analysis of the deposited data

How the results depend on the processing

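Of the 32 member calls, 28 (17 higher, 11 lower) kept their direction and call in all 7 alternatives in which they were tested. The 6 called members under 10 CPM were not part of the alternative restricted to genes of at least 10 CPM. Lost in at least 1 alternative were Rdh11, Akr1c19, Hsd11b1 and Aldh16a1. No member changed sign among those called, which was largely fixed in advance. Alternatives that altered only a filter or a threshold kept the same folds, and unadjusted p-values could not lose a call. Recentring moved each fold by 0.04 and the length trend alone by at most 0.10. Both are less than the smallest called fold, that of Rdh7 at −0.22. Lower members numbered 11, but 17 without the trend on length and 17 without the trend on length and GC content, and the alternatives with 1 choice of filter or threshold left the counts of members within 1.5 times. The length trend lay between 0.04 and 0.10 over the members, above 0 throughout, and removing it moved the median of all tested genes by −0.08, which by construction lowers every member fold.

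By family, without the trend on length the lower counts were 1 alcohol dehydrogenase instead of 0, 4 aldehyde dehydrogenases instead of 2 and 4 hydroxysteroid dehydrogenases instead of 2, and 1 hydroxysteroid dehydrogenase was higher instead of 2. Without the trend on length and GC content, 4 aldehyde and 4 hydroxysteroid dehydrogenases were lower. At an unadjusted p under 0.05, 4 aldehyde and 4 hydroxysteroid dehydrogenases were lower. Among genes of at least 10 CPM only, 3 aldehyde dehydrogenases instead of 5, 3 aldo-keto reductases instead of 5 and 2 Dhrs genes instead of 4 were higher, since the others were not tested.

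Over all tested genes, 935 instead of 1754 were higher among genes of at least 10 CPM only, where 53.6% of calls were higher instead of 67.5%. Lower genes numbered 846, against 463 at an adjusted p under 0.01, 1634 at an unadjusted p under 0.05, 1773 without the trend on length and 1829 without the trend on length and GC content. With folds recentred, 77.7% of all calls and 67.6% of member calls were higher. Without division by length, 8 of the 10 members of highest level per length remained among the 10 highest.

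No paired analysis was possible because the deposited table holds 1 value per gene for the comparison and none per liver, so the shared replicate numbers could not be used. Leaving out each liver, the replicate block and edgeR were not run for the same reason. Depth per liver is unknown. The median SE was 0.09 for tested members at or above 100 CPM and 0.25 for those under 10 CPM, so small changes of weakly expressed members could not be detected.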
